A study of Mus musculus with 4 samples.

Results

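The E26 transformation-specific (ETS) genes Ets1, Ets2, Fli1, Elf1, Elk3, Etv5, Etv6 and Gabpa were examined for binding of E2A, an E protein encoded by Tcf3, in thymocytes that lack the E protein antagonists Id2 and Id3. A peak belonged to a gene when its midpoint lay in the gene body or within 100 kb of it in the mm9 assembly. By this rule 73 of the 17532 E2A peaks of double-positive (DP) thymocytes and 4 of the 1516 E2A peaks of invariant natural killer T (iNKT) cells fell at these 8 genes. The rule used gene positions only and no score. All cells came from the thymus of L-DKO mice, 3 to 5 weeks old, in which floxed Id2 and Id3 alleles were deleted by LckCre, a recombinase driven by the T cell promoter of Lck. The strain background was C57BL/6 or a hybrid of C57BL/6 and 129. DP cells were sorted as CD1dTet- CD4+ CD8+ and iNKT cells as CD1dTet+ TCRβ+, and each sample pooled cells of 3 to 4 mice. Each of the 2 cell types had 1 E2A library, made with the anti-E2A antibody V-18, and 1 library of input DNA that was not immunoprecipitated. Without replicates no test between DP and iNKT cells was possible, and intervals given here cover counting error only. Wild-type cells were not analysed here, so nothing in these values separates the effect of Id loss. Peak lists hold no expression, so the sorted cell types could not be checked against marker genes.

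The score of a peak is the authors' MACS score, 10 times the negative log10 of its p-value against input, and the lowest score in either list was 50, a p-value of 1e-05. It grows with sequencing depth, and the depth of the libraries is unknown, so scores and ranks describe peaks within a list. The median score was 141 over all DP peaks and 79.6 over all iNKT peaks. In the DP list 258 peaks shared a score of exactly 3100 and 26 had a higher one.

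E proteins are basic helix-loop-helix factors that bind the E-box, CANNTG, as dimers, and Id proteins pair with them without binding DNA and so keep them from it. ETS factors share a winged helix-turn-helix domain that reads a GGAA core. Ets1 is needed for normal development of T cells, natural killer cells and iNKT cells, and ETS sites lie beside E-boxes and Runx sites in many T cell enhancers.

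Peaks in DP cells were found at 7 of the 8 genes, and most of them lay at the Ets1-Fli1 locus and around Ets2. Ets1 had 25 DP peaks, Ets2 and Fli1 had 15 each, Elk3 and Etv5 had 9 each, Etv6 had 8 and Elf1 had 2. Gabpa had none. Of all 22350 protein-coding genes, 65.1% had a DP peak by the same rule, with a median of 2 peaks, and 11.8% had 8 or more, the number reached by 6 of the 8 ETS genes. As many DP peaks as Ets1 were held by 0.130% of genes, and as many as Ets2 and Fli1 by 1.95%. Of the 15 DP peaks of Fli1, 10 also lay in the Ets1 window, and 5 of the 9 of Elk3 lay nearer to the start site of Cdk17. The 8 genes were chosen with results of these data known. In iNKT cells Ets1, Ets2, Elf1 and Etv5 had 1 peak each and the other 4 genes had none, against 16.9% of all protein-coding genes with an iNKT peak by this rule. The peaks of Ets1 and Etv5 lay inside the gene, and those of Ets2 and Elf1 lay 58.1 and 57.0 kb outside it. The iNKT comparison takes no account of window length. Long genes have longer windows. Per Mb of window, Ets1 had 77.7 DP peaks, Ets2 68.5, Fli1 47.0, Etv5 34.8, Elk3 34.1, Etv6 18.4 and Elf1 6.64, against a median of 6.07 over all protein-coding genes. As high a density was found at 0.671% of genes for Ets1, 1.31% for Ets2, 5.08% for Fli1, 9.90% for Etv5, 10.6% for Elk3, 26.9% for Etv6 and 49.6% for Elf1.

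**Figure D1:**
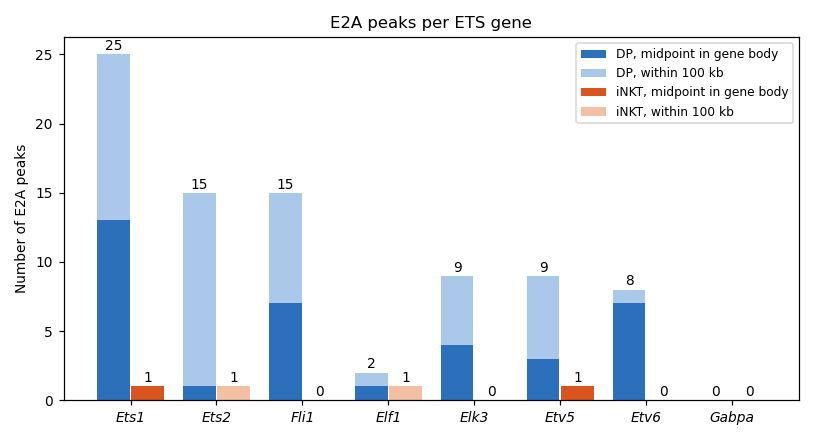
Number of E2A peaks at each ETS gene (y axis) in DP cells (blue) and iNKT cells (orange), with dark bars for midpoints in the gene body and light bars for midpoints within 100 kb of it. Ets1 stands highest with 25 DP peaks, and no gene has more than 1 iNKT peak.

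Sequences under some of these peaks are given, read from mm9 on the forward strand. The E-box forms searched, and set in capitals, were CAGGTG, on either strand, and the palindrome CAGCTG. Other CANNTG sites are left in lower case. The first pair are windows of 200 bases at the midpoint of iNKT peaks. They show the peak of Etv5, which had a higher score in iNKT than in DP cells, and the peak near Elf1, which was called in iNKT cells alone.
Etv5, shared peak, chr16:22396133-22396332: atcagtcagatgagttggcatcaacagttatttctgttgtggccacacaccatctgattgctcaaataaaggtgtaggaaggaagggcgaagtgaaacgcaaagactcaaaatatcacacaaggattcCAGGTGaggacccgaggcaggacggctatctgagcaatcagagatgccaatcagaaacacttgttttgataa
Elf1, iNKT peak, chr14:80039188-80039387: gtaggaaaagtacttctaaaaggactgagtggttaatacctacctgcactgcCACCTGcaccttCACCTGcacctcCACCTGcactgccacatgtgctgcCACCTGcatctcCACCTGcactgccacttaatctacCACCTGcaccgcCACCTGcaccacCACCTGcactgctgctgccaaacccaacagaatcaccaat
The Etv5 window holds 1 CAGGTG, and the Elf1 window holds 8 sites in an array of repeated units.

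For the iNKT peaks of Ets1 and Ets2, whose central 200 bases hold no E-box of these forms, and for high DP peaks of Ets1, Fli1, Ets2 and Etv6, 60 bases are shown around the CAGGTG nearest to the peak midpoint. These sites lay 19 to 533 bp from the midpoint. The lists do not give the place of highest signal within a peak, so E2A binding at the printed sites was not tested. Here only CAGGTG sites are in capitals, which leaves a CAGCTG beside the site of the highest Ets1 peak in lower case.
Ets1, iNKT peak over the last part of the gene, chr9:32555938-32555997: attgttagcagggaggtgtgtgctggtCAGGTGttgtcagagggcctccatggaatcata
Ets1, highest DP peak, outside the part shared with the iNKT peak, chr9:32553913-32553972: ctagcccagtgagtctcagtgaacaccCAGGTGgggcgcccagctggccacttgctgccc
Ets1, upstream DP peak, chr9:32423654-32423713: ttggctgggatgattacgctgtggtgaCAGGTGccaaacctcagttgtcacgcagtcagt
Ets1, intronic DP peak, chr9:32513780-32513839: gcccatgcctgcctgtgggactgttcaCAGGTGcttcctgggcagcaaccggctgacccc
Fli1, intronic DP peak, chr9:32317156-32317215: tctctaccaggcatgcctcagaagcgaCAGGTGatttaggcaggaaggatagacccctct
Ets2, downstream iNKT peak, chr16:96000485-96000544: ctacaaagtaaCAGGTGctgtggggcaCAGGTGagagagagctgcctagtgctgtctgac
Ets2, highest DP peak, chr16:96032943-96033002: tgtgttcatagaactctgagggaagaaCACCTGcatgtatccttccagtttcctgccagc
Etv6, highest DP peak, chr6:134123336-134123395: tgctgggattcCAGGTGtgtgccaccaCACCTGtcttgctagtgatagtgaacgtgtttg
The 20 bases centred on the nearest E-box occurred once in the assembly for all of these but the Ets2 iNKT site, which occurred 2 times. The highest DP peaks of Elk3 and Etv5 held neither CAGGTG nor CAGCTG over their whole length, and that of Elf1 held CAGCTG only.

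Ets1, the founding member of the family in lymphocytes, lies on the plus strand at chr9:32443806-32565405. Of its 25 DP peaks 13 had their midpoint inside the gene, all in introns. The annotation gives it a pair of start sites, 1 at the 5′ end and 1 at 32503627, which is 59.8 kb further in and is used by 3 of its 4 transcripts. Distances are given from the 5′ end unless the internal start is named.

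The highest peak at Ets1, and at all 8 genes, lay over the last part of the gene at chr9:32551758-32556846. It scored 3100, and its rank of 27 was shared by the 258 peaks of that score. Its midpoint lay 110 kb after the 5′ end and 50.7 kb after the internal start. This peak was 5089 bp wide, against a median of 984 bp, and 26 DP peaks in the whole list, itself included, were as wide or wider. It held 9 CAGGTG and 3 CAGCTG sites. The single iNKT peak of Ets1, chr9:32554825-32556809, lay wholly within it, over its distal part and 5 of its CAGGTG sites. The iNKT score was 68.4, with a rank of 920 of 1516. A site near the top of the DP list by score was thus below the median of the iNKT list. Among the DP peaks that shared the score of 3100, 20 were at least this wide.

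Upstream of Ets1 a group of 7 DP peaks lay between 44.0 and 15.5 kb before the 5′ end, spanning 29.7 kb, of which 10.9 kb was in peaks. Their scores ran from 85.9 to 1798. The highest, chr9:32422777-32425655, ranked 752 and lay 19.6 kb upstream, and the next, chr9:32415947-32417341, scored 1045 and lay 27.2 kb upstream. Relative to the internal start the group lay 75.3 to 104 kb upstream. No iNKT peak was called there, and over the whole list 5.99% of DP peaks overlapped one (31.9% of those scoring 1000 or more). A further group of 11 DP peaks filled the second part of the gene, from 59.6 to 110 kb after the 5′ end, and ended in the wide peak described above. Within the group, the peak at chr9:32513017-32514564 scored 1589 and ranked 903, and it lay 10.2 kb after the internal start. The peak at chr9:32524408-32526221 scored 746. At the internal start itself the DP peak was close to the calling threshold, with a score of 50.4 and a midpoint 0.258 kb before that start. No DP peak had its midpoint within 15 kb of the 5′ end, and the nearest lay 15.5 kb upstream with a score of 85.9. The high-scoring peaks of Ets1 thus lay away from both start sites.

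Fli1, a relative of Ets1 with roles in blood stem cells and megakaryocytes, lies head to head with it on the minus strand at chr9:32229793-32348974, and their 5′ ends are 94.8 kb apart. Because of this, 10 of the DP peaks lay in the windows of both genes, including the group upstream of Ets1, and are counted once in the total of 73. The nearest start site was that of Ets1 for all 7 peaks of this group, and the highest of them lay 75.2 kb upstream of Fli1. Inside Fli1 there were 7 DP peaks. A group of 5 lay 22.8 to 45.5 kb into the gene with scores from 106 to 1059, and the highest, chr9:32316421-32318553, ranked 1547 and lay 31.5 kb downstream of the start site. Its neighbor, chr9:32313395-32315646, scored 736 and 5 CAGGTG sites. Near the start site, peaks lay 1.85 and 3.06 kb downstream with scores of 60.1 and 275. The iNKT list had no peak in the Fli1 window, and the nearest iNKT peak was that of Ets1, 207 kb from the body of Fli1. By the score of its DP peaks, with a median of 275, Fli1 stood above the list as a whole, with the caveat that 8 of its 15 peaks lie in the shared stretch upstream.

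**Figure D2:**
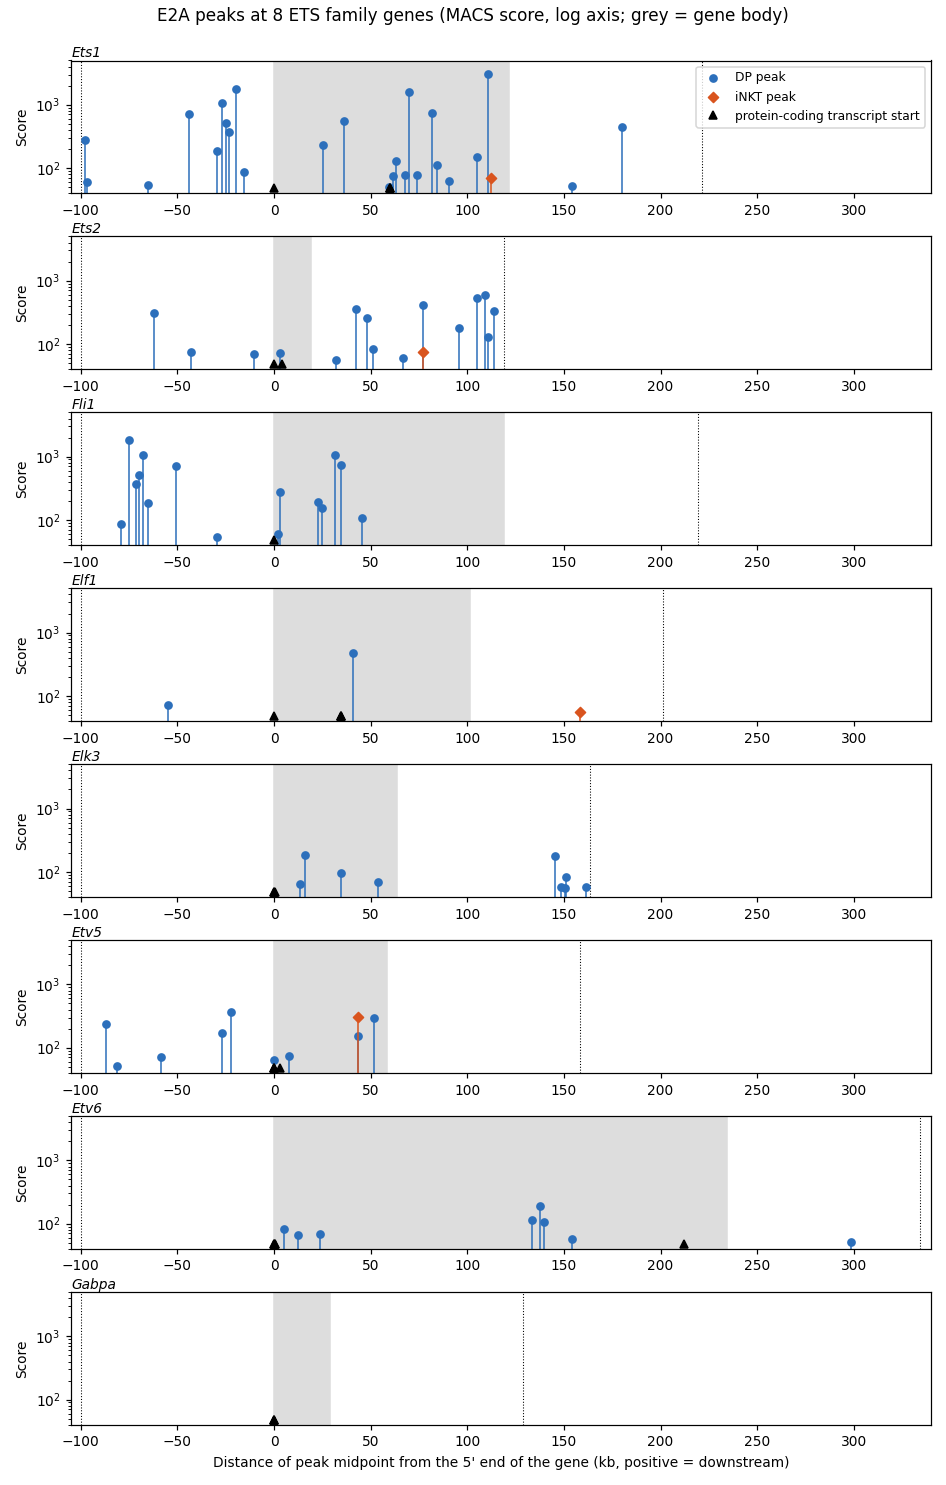
MACS score (y axis, log scale) of each E2A peak against the distance of its midpoint from the 5′ end of the gene in kb (x axis), 1 panel per gene, with DP peaks as blue circles, iNKT peaks as orange diamonds, the gene body in grey, protein-coding transcript starts as black triangles and the 100 kb limits as dotted lines. Ets1 and Fli1 hold groups of high DP peaks away from the start sites, Etv5 holds the only iNKT peak that lies above a DP peak it overlaps, and Gabpa is empty.

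Ets2, the closest relative of Ets1 and a target of MAP kinase signaling, had a different arrangement. Its body, on the plus strand at chr16:95923682-95942658, held 1 of its 15 DP peaks, with a score of 70.9 and a midpoint 2.97 kb after the start site. Of the others, 3 lay upstream and 11 downstream, past the end of the gene. Their scores reached 600 at the peak at chr16:96032046-96033585, which ranked 2816 and lay 109 kb from the start site. It belonged to a group of 5 peaks between 95.5 and 114 kb with scores of 129 to 600. The iNKT peak, chr16:96000084-96001387, lay 77.1 kb downstream of the start site with a score of 74.8 and a rank of 836. It overlapped by 1066 bp a DP peak at chr16:95999882-96001149 with a score of 408 and a rank of 4013. The pair of CAGGTG sites shown above lies in both peaks, and 5 such sites lie in the iNKT peak in all. Upstream, the DP peak at chr16:95861174-95862276 scored 309 and lay nearer to the start site of Erg, at 53.5 kb, than to that of Ets2, at 62.0 kb.

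Etv5, a PEA3-type factor known for its part in spermatogonial stem cells and in branching organs, held the only one of the 3 overlapping pairs of peaks at these genes in which the iNKT score was the higher. The gene lies on the minus strand at chr16:22381382-22439792. Its iNKT peak, in an intron at chr16:22395681-22396786, scored 308 and ranked 114 of 1516, the highest rank of any iNKT peak at these genes. The DP peak at the same place, chr16:22395683-22396751, scored 154 and ranked 8292 of 17532. The peaks overlapped over 1069 bp, the whole of the DP peak, and held 4 CAGGTG sites and 1 CAGCTG site. They lay 43.6 kb after the start site, and the nearest annotated start, of a transcript subject to nonsense-mediated decay, was 5.69 kb from the DP peak. Among all 1059 overlapping pairs of DP and iNKT peaks, 7.27% had the higher score in the iNKT list, and 2.36% had a ratio of iNKT to DP score as high as that of Etv5, which was 2.0. At Ets2 this ratio was 0.183, and 35.8% of pairs had a ratio at least as high. No ratio is given for Ets1, since 258 DP peaks share its score of 3100, which may be a ceiling although 26 DP peaks scored higher. These ratios depend on the depth of both libraries and only order the pairs. The cause of the difference at Etv5 was not tested, and without replicates it has no error.

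**Figure D3:**
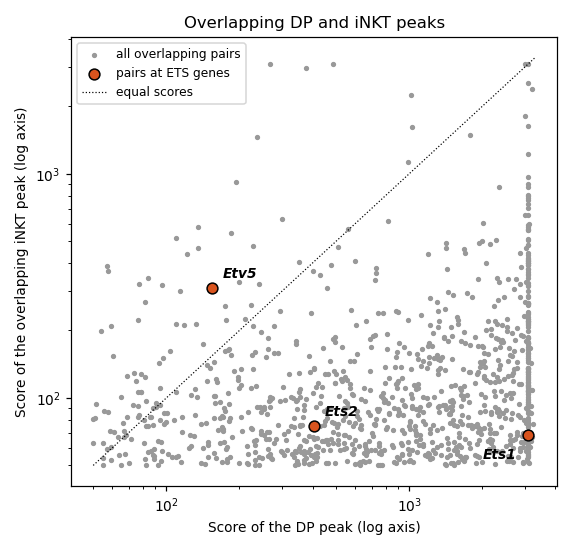
Score of each DP peak (x axis, log scale) against the score of the iNKT peak that it overlaps (y axis, log scale) for all 1059 overlapping pairs (grey) and the 3 pairs at ETS genes (orange), with a dotted line at equal scores. Etv5 lies above the line, Ets2 below it and Ets1 at the edge where DP scores reach 3100.

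The other DP peaks of Etv5 were 8 in number and overlapped no iNKT peak, and over the whole list 5.99% of DP peaks overlapped one. The highest, chr16:22461380-22462420 and 22.1 kb upstream, scored 362 and ranked 4416. Another, chr16:22387620-22388444, lay 51.8 kb into the gene with a score of 298. Peaks further upstream, with scores of 71.3, 50.9 and 236, lay inside the neighboring gene Dgkg, although the nearest start site was still that of Etv5. Etv5 was also the only one of the 8 genes with a DP peak midpoint within 1 kb of its 5′ end, the internal start of Ets1 aside, against 11.6% of all protein-coding genes. This peak, chr16:22439537-22440366, had a low score of 64.5, and its midpoint lay 0.159 kb upstream. The 250 bases before the start site, printed on the minus strand because the gene is read from it, hold 1 CAGCTG and no CAGGTG.
Etv5 promoter, chr16:22439793-22440042, minus strand: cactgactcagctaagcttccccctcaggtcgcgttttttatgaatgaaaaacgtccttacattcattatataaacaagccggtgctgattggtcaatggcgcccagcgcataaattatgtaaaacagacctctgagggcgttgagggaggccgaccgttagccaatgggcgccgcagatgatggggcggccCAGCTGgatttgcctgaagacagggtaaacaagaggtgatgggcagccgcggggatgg

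Etv6, also called Tel, is a repressor required by blood stem cells and is the longest of the genes, on the plus strand at chr6:133985718-134220176. Its 8 DP peaks had scores from 50.7 to 192, and 7 of them lay in introns. A group of 4 lay 133 to 154 kb after the start site, and the highest of these, chr6:134122873-134123912, ranked 7039. The others inside the gene lay 5.29, 12.6 and 23.9 kb after the start site with scores of 83.0, 65.5 and 67.6. The DP signal at Etv6 was thus spread over several modest peaks, and no iNKT peak was called nearer than 647 kb from the gene.

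Elk3, also called Net, is a ternary complex factor that binds with serum response factor. It lies on the minus strand at chr10:92710159-92773880. Of its 9 DP peaks 4 were intronic, with scores of 69.1, 96.8, 187 and 64.2 in order toward the start site. The highest, chr10:92757351-92758283, ranked 7193 and lay 16.1 kb after the start site. The other 5 peaks, 145 to 161 kb away, had scores from 55.7 to 174 and lay nearer to the start site of Cdk17, at 0.192 to 11.1 kb. Of these, 2 lay within 1 kb of the Cdk17 start site, and position alone does not say which gene they serve.

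Elf1, a lymphoid member of the family, lies on the plus strand at chr14:79881001-79982283. One of its 2 DP peaks, chr14:79825722-79826508 with a score of 71.3, lay 0.085 kb from the start site of Kbtbd7 and 54.9 kb from that of Elf1. The other, chr14:79921008-79922212, lay in an intron of Elf1 with a score of 471 and a rank of 3546. It lay 40.6 kb from the 5′ end and 6.12 kb from an internal start near which 3 of its 4 transcripts begin, and the start site of Wbp4 was 40.5 kb away. The iNKT peak, chr14:80038912-80039664, was the only one at these genes that overlapped no DP peak. It scored 54.5, ranked 1290 and lay inside Lect1, 158 kb from the start site of Elf1 and 22.7 kb from that of Lect1. The nearest DP peak was the intronic Elf1 peak, 118 kb away. Its 9 CAGGTG sites lay within 171 bp, and the first 8 were 12 or 24 bases apart. In the central 200 bases, 1.78% of all iNKT peaks and 0.348% of all DP peaks held as many as 8 such sites, and the median DP peak held 0. The part of this repeated sequence in the call was not tested.

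Gabpa encodes the DNA-binding subunit of GABP, which acts at the promoters of many mitochondrial and housekeeping genes. It lies on the plus strand at chr16:84835170-84864024, and neither list had a peak within 100 kb. The nearest DP peak lay 251 kb from the gene, with a score of 1418, and the nearest iNKT peak 3521 kb away.

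**Figure D4:**
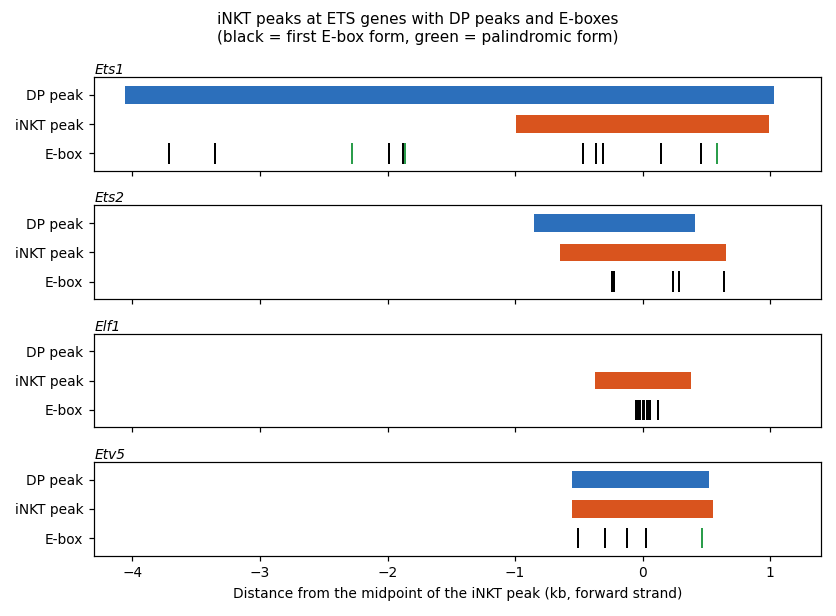
Extent of the iNKT peak (orange) and of the DP peak it overlaps (blue) at Ets1, Ets2, Elf1 and Etv5, with CAGGTG sites as black ticks and CAGCTG sites as green ticks, against the distance from the midpoint of the iNKT peak in kb (x axis). The Ets1 DP peak extends far beyond the iNKT peak, the Etv5 peaks coincide, and the Elf1 sites form a tight array with no DP peak.

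Compared with the DP list as a whole, the peaks at the 8 genes were of ordinary strength. Their median score was 127, with quartiles of 69.1 and 330, against 141, with quartiles of 76.2 and 366, over all DP peaks. Among the highest-scoring 10.0% of all DP peaks there were 5 of the 73, which is 6.85%, and all 5 had scores of 1000 or more and lay at Ets1 or Fli1. Scores under 100 were found at 43.8% of these peaks and at 37.4% of all DP peaks. The median width was 1013 bp against 984 bp. Positions are given for these peaks without a value for the whole list. Of the 73 peaks, 36 lay inside one of the genes, none with its midpoint in an exon of that gene, and 37 lay outside. The start site of one of the 8 genes was the nearest of any protein-coding gene for 64 of the peaks, and another gene was nearer for 9. Of the midpoints, 4 lay within 5 kb of a 5′ end of these genes and 38 lay over 50 kb away, with a median of 51.8 kb. Measured to the nearest start of any transcript of the gene, the median was 29.5 kb.

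**Figure D5:**
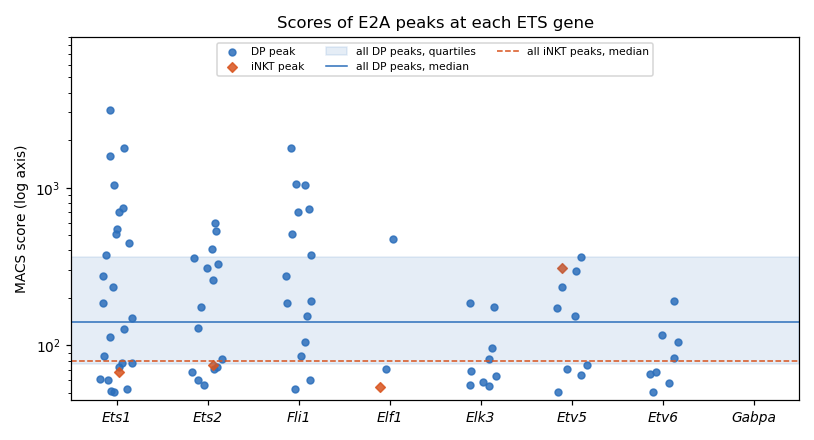
MACS score (y axis, log scale) of every E2A peak at each ETS gene, with DP peaks as blue circles and iNKT peaks as orange diamonds, the median and quartiles of all DP peaks as a blue line and band, and the median of all iNKT peaks as a dashed orange line. Points are spread sideways for legibility, the scores above 1000 lie at Ets1 and Fli1, and those at Etv6 and Elk3 stay under 200.

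An iNKT peak was called at 3 of the 73 DP peaks, which is 4.11% (95% Wilson interval 1.41 to 11.4), against 5.99% of all DP peaks. Conversely, 3 of the 4 iNKT peaks (75%, 30.1 to 95.4) had a DP peak beneath them, against 69.3% of all iNKT peaks. Among DP peaks with a score of 1000 or more, 1 of 5 at these genes had an iNKT peak (20%, 3.62 to 62.4), against 31.9% in the list. Most high-scoring DP peaks in the list thus had no iNKT peak, as at the upstream sites of Ets1 and at Fli1, and at an unknown depth an absent call does not show absent binding.

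The DP peaks were searched for both E-box forms. CAGGTG was found in the central 200 bases of 25 of the 73 peaks, which is 34.2% (24.4 to 45.7), against 43.9% of all DP peaks and 14.4% (9.60 to 21.0) in windows 2 kb to either side of the 73. CAGCTG was found at 8, which is 10.96% (5.66 to 20.2), against 29.0% of all DP peaks and 9.59% (5.80 to 15.5) in the flanks. In these windows the interval held the list's share for CAGGTG (43.9%) but not for CAGCTG. By gene, CAGCTG lay at 1 of 25 peaks of Ets1, 1 of 15 of Ets2, 0 of 15 of Fli1, 0 of 2 of Elf1, 2 of 9 of Elk3, 0 of 9 of Etv5 and 4 of 8 of Etv6. Ets1 and Fli1 share 10 of these peaks, and no difference between genes was tested. With more sequence searched the shares of both forms over the 73 peaks lay below those of the list. CAGGTG was found at 43.8% (33.0 to 55.2) against 61.1% in 400 bases and at 68.5% (57.1 to 78.0) against 79.0% over whole peaks. CAGCTG was found at 26.0% (17.3 to 37.1) against 43.5% in 400 bases and 50.7% (39.5 to 61.8) against 63.4% over whole peaks. Of the 41 peaks with a score of 100 or more, 1 held CAGCTG in the central 200 bases (2.44%, 0.432 to 12.6), against 30.6% of all DP peaks with such scores. Neighboring peaks of a locus are not independent, and the comparison for CAGCTG was picked after its values were seen. An ETS core, CCGGAA or AGGAAG on either strand, lay at 28 of the peaks, which is 38.4% (28.1 to 49.8), against 41.2% of all DP peaks and 30.8% in the flanks. DP peaks with CAGGTG had a median score of 154 (25 peaks) and those without it 117 (48 peaks), and over the whole list these medians were 153 and 133.

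The other 18 mouse ETS genes of a fixed list were Erg, Fev, Elk1, Elk4, Elf2, Elf3, Elf4, Elf5, Ehf, Etv1, Etv2, Etv3, Etv4, Erf, Spi1, Spib, Spic and Spdef. They had fewer DP peaks, with a median of 2 per gene against 9 for the 8 genes above. The median over all protein-coding genes was also 2. No density per Mb of window was computed for the 18 genes. At least 1 DP peak was found at 14 of them, against 65.1% of all protein-coding genes by the same rule. None was found at Elk1, Elf3, Ehf and Etv1. The most were at Erg, with 10 peaks and a highest score of 591, then at Erf, with 8, and at Elk4, Elf4 and Spib with 6 each. Erg lies 115 kb from Ets2, start site to start site, and 2 DP peaks lay in both windows. An iNKT peak was found at 3 of the 18 genes, Fev, Etv4 and Spib, against 16.9% of all protein-coding genes. The score of the highest DP peak was 2397 at Elk4, a ternary complex factor with a part in positive selection of thymocytes, and 1687 at Etv4. Neither of these peaks had its midpoint in the gene body. The only DP peak inside Elk4 scored 358, and Etv4 held none in its body. No test was made between these genes and the 8, which were chosen with results of these data known.

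The distance limit left out high-scoring peaks beside Elk3. Just inside 100 kb of Elk3 lay the DP peak with a score of 56.3, at 97.6 kb. Just outside, at 102 kb, the DP peak at chr10:92605317-92610829 scored 3100. The iNKT list had a peak over it, chr10:92609029-92610096, which scored 134, ranked 367 and lay at 101 kb. Both were nearest to the start site of Cdk17, at 15.5 and 14.1 kb.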

How the data were processed

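E2A ChIP-Seq of L-DKO DP and iNKT cells was used as deposited. Per the labels and methods, the authors mapped reads against mm9 (Bowtie 1.1.2), discarding any with several equally good positions, and ran MACS 1.4.2 with its defaults, 1 run per cell type against the input. The mapping filter loses reads from repeats, and depth changes how many peaks are called. The deposited value is the MACS score of each peak, and the reads behind it are not analysed here. Genes were those of GENCODE M1 on NCBIM37, the assembly of mm9, with Spi1 under its older symbol Sfpi1. Peak starts were shifted by 1 to count from 1. Peaks of the lists were taken as shared at an overlap of 1 bp. The 200 bp at each midpoint were read for motifs, both strands included. Functions were tested on simulated data. The members, the lists of genes and the comparisons were chosen with earlier results of these data known. Named are the 8 genes, with for each the highest DP peak, the DP peak nearest to its start site and every iNKT peak, and of the other ETS genes those with most DP peaks. Other peaks were named after their values were seen. Python 3.11.15, pandas 2.3.3, scipy 1.17.1 and pysam 0.24.0 were used.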

Additional observations from a re-analysis of the deposited data

How the results depend on the processing

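Alternatives gave 50 values of 10 results, of which 27 changed by less than the 95% interval of a share, or by at most 1.5 times for a count or distance, and 23 changed by more. Within 200 kb there were 108 DP and 6 iNKT peaks, the latter at 5 genes and exactly 1.5 times the 4 within 100 kb. No paired analysis was possible because each cell type has 1 library and no test was made. With midpoints in the gene body only, 36 DP and 2 iNKT peaks remained, at 7 and 2 genes, and both iNKT peaks overlapped a DP peak (100%). Within 30 kb there were likewise 2 iNKT peaks at 2 genes, both overlapping (100%). At a minimum score of 100, 41 DP peaks and 1 iNKT peak at 1 gene, that of Etv5, were left, and the iNKT peak overlapped a DP peak (100%). At a minimum of 200 there were 25 DP peaks and 1 iNKT peak at 1 gene, and the share of overlap was 0% in both directions, since the minimum applies to both lists and the DP peak of Etv5 and the iNKT peaks of Ets1 and Ets2 fall below it. These counts fall by construction. With whole peaks searched, CAGGTG was found at 68.5% of the DP peaks (79.0% of all DP peaks) and an ETS core at 89.0% (85.2%), and in 400 bp the ETS core was found at 60.3% (61.9%), as longer sequence holds more sites. The alternatives for CAGCTG were chosen after seeing the data. With 1 library per cell type, the number of peaks and their scores cannot be separated from depth.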

Other observations

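Further DP peaks lay between 100 and 200 kb from these genes. Past the 3′ end of Ets1 a peak at chr9:32735109-32737705 scored 2874, at 171 kb beyond the gene body. It was overlapped by an iNKT peak at chr9:32735612-32736850 that scored 282 and ranked 127, and Ets1 had the nearest protein-coding start site, 293 kb away. On the downstream side of Ets2, beyond the last of the peaks described above, neighboring DP peaks at chr16:96087265-96090002 and chr16:96090264-96093829 each scored 3100. They lay 146 and 149 kb from Ets2, were nearest to the start site of Psmg1 at 124 and 121 kb, and overlapped no iNKT peak. These peaks were picked after their values were seen, and no explanation was tested.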
